A study of Mus musculus with 9 samples.

Results

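Proneural factors are transcription factors of the basic helix-loop-helix (bHLH) class, and 8 of them were followed here in the mouse retina on postnatal day 4 (P4): Atoh7, Neurog2, Neurod1, Neurod2, Neurod4, Olig2, Ptf1a and Bhlhe22. They were chosen by name, with earlier results of these data known, and all 8 were found among the 53280 genes of the count table and passed the filter on low counts that 21150 genes passed. The pools held neural retina of Opn4 knockout pups, which lack melanopsin, the photopigment of intrinsically photosensitive ganglion cells, or of their wildtype littermates. Opn4+/- parents were crossed, the litters were kept at about 300 lux in standard lighting, and retinas were taken between ZT6 and ZT7. There were 5 knockout and 4 wildtype pools, each made from 4 retinas of 2 animals of the same genotype and sequenced as 1 library of poly-A RNA. Sex, litter and the strain of the Opn4 allele are not stated in the labels.

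A proneural factor pairs with a broadly expressed E protein, binds the short DNA motif called the E-box, and pushes a dividing progenitor toward a neuronal fate. Progenitors restrain the same factors through Notch signalling, whose targets Hes1 and Hes5 repress proneural genes, and through Id proteins, which tie up E proteins. In the retina Atoh7 is required for most ganglion cells, Ptf1a for amacrine and horizontal cells, and Neurog2 and Olig2 mark progenitors near their last divisions. Neurod1 acts in photoreceptors and amacrine cells, Neurod4 in amacrine and bipolar cells, Neurod2 in amacrine and ganglion cells, and Bhlhe22 in amacrine and OFF bipolar cells. At P4 ganglion cell birth is over, while rods, bipolar cells and Müller glia are still being made.

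The count table held 65.5 to 86.1 M counts per pool (M, mega), more than the average number of reads that the submitters state for a sample. What 1 count stands for is not given, so raw counts here may not be numbers of sequenced fragments. Opn4 was measured first as a check of the labels, at 1.07 to 1.82 CPM (counts scaled to library size, with TMM factors) in knockout and at 11.4 to 12.03 CPM in wildtype, so that each library matched its label. All 9 defining genes of the neural retina were present in each pool, with a summed level of 2963 to 3093 CPM in wildtype and 3129 to 3481 CPM in knockout. Lens genes summed to 23.8 and 19.9 CPM in knockout pools 1 and 2 and to 10.3 to 12.8 CPM in the other pools. Red blood cell genes summed to 111 to 337 CPM in wildtype, with pool 3 highest, and to 74.0 to 99.6 CPM in knockout, so that they split by genotype as the lower members did. Of these 7 genes 5 were called lower by edgeR, with a median log2 fold change of −1.25, and 2 were without knockout pools 1 and 2. Their part in the members' results was not tested. Wildtype pool 3 also held 14.1 CPM of Xist, the RNA of the inactive X chromosome, against 710 to 1066 CPM in the other pools. The members' results are therefore given with and without these pools where that ends a call. Whole retina was measured, so fewer cells of a type and less RNA per cell cannot be told apart.

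The start regions of the 4 members that passed the test are shown because the E-box, CANNTG, is the motif that this class binds, and proneural genes are known to regulate one another. Each is the stretch of up to 250 bases that lies upstream of both the RefSeq and the GENCODE M21 start of the gene, 5′ to 3′ on the gene's strand, from RefSeq on GRCm38.p6, with any E-box in capitals. Atoh7 is taken from chr10:63099535-63099650 (plus strand), Ptf1a from chr2:19445413-19445662 (plus), Olig2 from chr16:91225300-91225456 (plus) and Neurod1 from chr2:79456752-79456886 (minus).
Atoh7: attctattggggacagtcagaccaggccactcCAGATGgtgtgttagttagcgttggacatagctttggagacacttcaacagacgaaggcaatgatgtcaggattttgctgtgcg
Ptf1a: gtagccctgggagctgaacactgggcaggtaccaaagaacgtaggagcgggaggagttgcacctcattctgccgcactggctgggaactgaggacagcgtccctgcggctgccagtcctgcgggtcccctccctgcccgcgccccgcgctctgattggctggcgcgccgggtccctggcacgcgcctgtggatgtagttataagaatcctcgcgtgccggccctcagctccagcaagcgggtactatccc
Olig2: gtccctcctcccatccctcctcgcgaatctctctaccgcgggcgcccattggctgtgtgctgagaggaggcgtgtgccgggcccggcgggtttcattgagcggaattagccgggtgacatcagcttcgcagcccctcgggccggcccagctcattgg
Neurod1: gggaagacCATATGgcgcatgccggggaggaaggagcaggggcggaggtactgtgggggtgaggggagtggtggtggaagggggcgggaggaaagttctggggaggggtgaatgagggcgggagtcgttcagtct
The 116 bases of Atoh7 held 1 E-box, CAGATG, and the 135 bases of Neurod1 held 1, CATATG. No CANNTG stood in the windows of Ptf1a (250 bases) and Olig2 (157 bases). CAGATG, or CATCTG on the other strand, is found in 7% of all 32851 promoter windows over the bases shown for Atoh7, and any CANNTG in 40.7% of them, in 45.6% over those of Neurod1, in 66.2% over those of Ptf1a and in 50.8% over those of Olig2. CAGCTG, a form of the same motif, was in none of the 4 windows. A match describes the letters alone. RefSeq windows were found for 7 of the 8 members. Of those that did not pass the test, Neurod2 (247 bases) held 3 E-boxes, 1 of them CAGATG. Over its bases any CANNTG is found in 65.9% of all promoter windows, and CAGATG or CATCTG in 14.4%. Neurog2 and Neurod4 held none.

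In the genotype comparison, Atoh7, Ptf1a and Olig2 were lower in knockout, Neurod1 was slightly higher, and the other members did not pass the test. Of the 8 members, 4 were called, 3 lower and 1 higher (edgeR quasi-likelihood test, Benjamini-Hochberg adjusted p under 0.05 over 21150 genes), where 3.59% of all tested genes were called, 2.25% lower and 1.34% higher. The pools of both genotypes did not overlap for 3 members, all lower in knockout, as for 4.37% of all tested genes in that direction and 3.92% in the other. The median log2 fold change of the 8, knockout minus wildtype as throughout, was −0.05, and that of all tested genes was 0.0012. The size of the called changes had a median of 0.44 over all genes, so that Atoh7 and Ptf1a lay above it and Olig2 and Neurod1 below it.

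**Figure D1:**
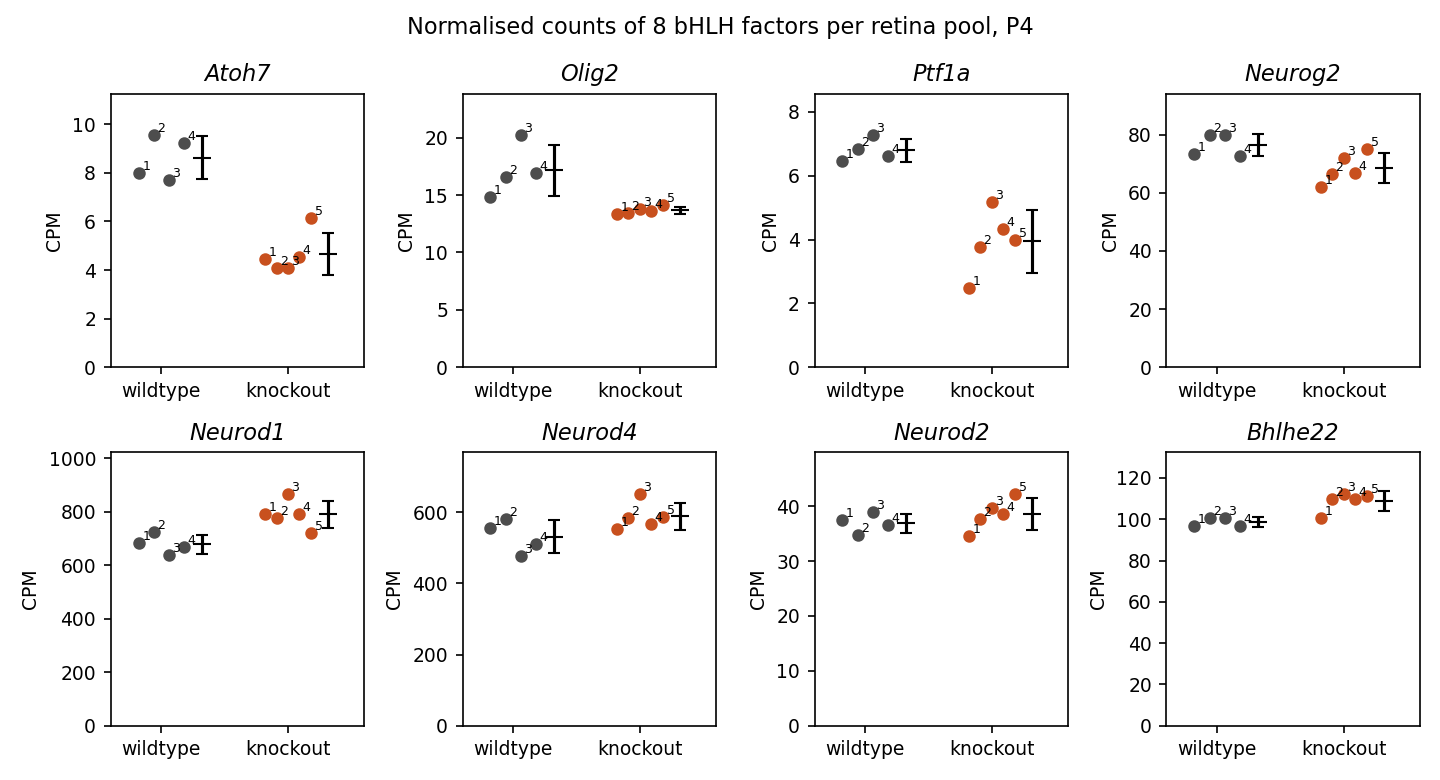
Normalised counts (CPM, linear axes from 0) of the 8 factors in each of the 4 wildtype (grey) and 5 knockout (orange) pools, numbered by pool; the bar beside each group gives mean and SD. Atoh7, Ptf1a and Olig2 have no overlap between genotypes, while the Neurod1 values of knockout pool 5 (721 CPM) and wildtype pool 2 (722 CPM) meet.

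Atoh7 opens the ganglion cell program and is switched on around the last division of a progenitor. It was at 8.01, 9.55, 7.73 and 9.25 CPM in wildtype pools 1 to 4 and at 4.46, 4.07, 4.09, 4.55 and 6.16 CPM in knockout pools 1 to 5. Each knockout pool lay under each wildtype pool, and knockout pool 5 was the highest of its group. The knockout mean of 4.66 ± 0.86 CPM (SD, n = 5) was 54.0% of the wildtype mean of 8.63 ± 0.90 CPM (SD, n = 4). On the log2 scale it fell by 0.89 (SE 0.13; adjusted p = 0.00193 by edgeR), and the call held without any single pool (adjusted p 0.000311 to 0.00971). An exact two-sided permutation test over all ways to choose 4 of 9 pools gave p = 0.0159, the smallest possible with these group sizes. Atoh7 rests on 266 to 745 raw counts per pool and is a single exon of 1629 bases on chromosome 10 (63099651 to 63101279, plus strand, GRCm38). In the TPM table, where transcript abundance is scaled by length and total, it measured 9.70, 11.5, 9.81 and 11.1 TPM in wildtype and 5.25, 4.84, 5.02, 5.48 and 7.46 TPM in knockout. On the log2(TPM + 0.5) scale it fell by 0.86 (limma adjusted p = 0.00661), and 99.4% of its TPM came from 1 of its 2 transcript rows.

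Ptf1a commits cells to the amacrine and horizontal fates. It stood at 6.45, 6.84, 7.27 and 6.62 CPM in wildtype pools 1 to 4 and at 2.47, 3.76, 5.17, 4.32 and 3.99 CPM in knockout pools 1 to 5. The genotypes did not overlap, and the knockout pools were the more spread of the 2 groups, with pool 1 lowest and pool 3 highest. The mean was 3.94 ± 0.98 CPM in knockout (SD, n = 5) and 6.79 ± 0.35 CPM in wildtype (SD, n = 4), or 58.0% of wildtype. This is a log2 fold change of −0.79 (SE 0.17; adjusted p = 0.0175 by edgeR, exact permutation p = 0.0159). Its call was lost without wildtype pool 3, the pool with the most red blood cell RNA (−0.75, adjusted p = 0.0546), and held without knockout pools 1 and 2, at −0.60. In gene-summed TPM it fell by 0.75 (limma adjusted p = 0.0363), but 7 of the 9 fits that left out 1 pool lost this call (adjusted p 0.0233 to 0.0942). Ptf1a lies on chromosome 2 (19445663 to 19447501, plus strand, GRCm38), and 40.4% of its exon bases also belong to the antisense gene Ptf1aos. Ptf1aos reached at most 0.0409 CPM in a pool, and the labels do not say whether counting used strand.

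Olig2 labels a subset of late progenitors in the retina, and elsewhere the oligodendrocyte lineage. It measured 14.9, 16.6, 20.2 and 17.0 CPM in wildtype pools 1 to 4 and 13.3, 13.5, 13.8, 13.6 and 14.1 CPM in knockout pools 1 to 5. The knockout pools were nearly level with one another, and the wildtype pools ran from just above them to the single high value of pool 3. With means of 13.7 ± 0.31 CPM (SD, n = 5) and 17.2 ± 2.2 CPM (SD, n = 4), knockout held 79.7% of wildtype. The log2 fold change of −0.33 (SE 0.08) passed the test narrowly (edgeR adjusted p = 0.0473; exact permutation p = 0.0159). That call was lost in 8 of the 9 fits that left out 1 pool (all but that without wildtype pool 1; adjusted p 0.0248 to 0.106), and the value was −0.24 without wildtype pool 3. Without knockout pools 1 and 2 it was −0.31 (adjusted p = 0.171). In gene-summed TPM Olig2 measured −0.29 without passing the test (limma adjusted p = 0.162). Of 9 oligodendrocyte genes none was called, and their summed level was 217 to 248 CPM in wildtype and 197 to 253 CPM in knockout. Most of that sum came from Pdgfra, Cnp and Mbp. Their means were 93.7, 77.2 and 49.0 CPM in wildtype and 101, 70.8 and 45.6 CPM in knockout. None of the 9 was at 0, and Sox10, which defines that lineage, was at 0.223 to 0.580 CPM. Olig1, the neighbour and close relative of Olig2 in that lineage, was at 0.650 ± 0.15 CPM in knockout (SD, n = 5) and 0.679 ± 0.20 CPM in wildtype (SD, n = 4), with an edgeR adjusted p of 0.946.

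Neurog2, which like Atoh7 is expressed by progenitors leaving the cell cycle, lay far above both. It was at 73.4, 79.8, 79.9 and 72.8 CPM in wildtype pools and at 62.1, 66.5, 72.0, 66.8 and 75.1 CPM in knockout pools. Most knockout pools were below wildtype, but pool 5 was above 2 of the wildtype pools. Its log2 fold change of −0.16 had a 95% interval of −0.28 to −0.03 and did not pass the test across all genes (edgeR adjusted p = 0.174; exact permutation p = 0.0635). In gene-summed TPM it measured −0.16 (limma adjusted p = 0.290).

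Neurod1, a factor of photoreceptor precursors and amacrine cells, was the most abundant member and the only one called higher. It was at 682, 722, 639 and 668 CPM in wildtype pools 1 to 4 and at 792, 778, 867, 790 and 721 CPM in knockout pools 1 to 5. Only knockout pool 5 fell among the wildtype values, just under wildtype pool 2. The means were 789 ± 52 CPM (SD, n = 5) and 678 ± 34 CPM (SD, n = 4), a log2 fold change of 0.22 (SE 0.05; adjusted p = 0.0421 by edgeR, exact permutation p = 0.0317). The call was lost in 7 of the 9 fits without 1 pool (adjusted p 0.0167 to 0.118), the exceptions being those without knockout pool 5 and without wildtype pool 2, with values of 0.18 to 0.25. Without knockout pools 1 and 2 it was 0.22 (adjusted p = 0.117). In gene-summed TPM, where the genotypes did not overlap, the value was 0.22 (limma adjusted p = 0.0796). Neurod1 (chromosome 2, 79452521 to 79456751, minus strand, GRCm38) shares 7.37% of its exon bases with Cerkl on the same strand. Cerkl was at 16.7 CPM in knockout and 12.1 CPM in wildtype on average, not called (adjusted p = 0.189).

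The remaining members each had a small positive value that did not pass the test. Neurod4 ranged from 478 to 581 CPM in wildtype and from 554 to 652 CPM in knockout (log2 fold change 0.15, 95% interval 0.01 to 0.28; edgeR adjusted p = 0.262). Bhlhe22 was at 96.5 to 100.8 CPM in wildtype and at 100.6, 109.9, 112.4, 110.02 and 111.2 CPM in knockout pools 1 to 5, so that only pool 1 met the wildtype range. Its value of 0.14 (95% interval 0.05 to 0.23) had an edgeR adjusted p of 0.0957, which was 0.0323 without knockout pool 1 and 0.0624 without both pools with more lens RNA, knockout 1 and 2. Neurod2, at 34.7 to 38.9 CPM in wildtype and 34.5 to 42.3 CPM in knockout, overlapped throughout (0.06, 95% interval −0.07 to 0.20; edgeR adjusted p = 0.691).

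**Figure D2:**
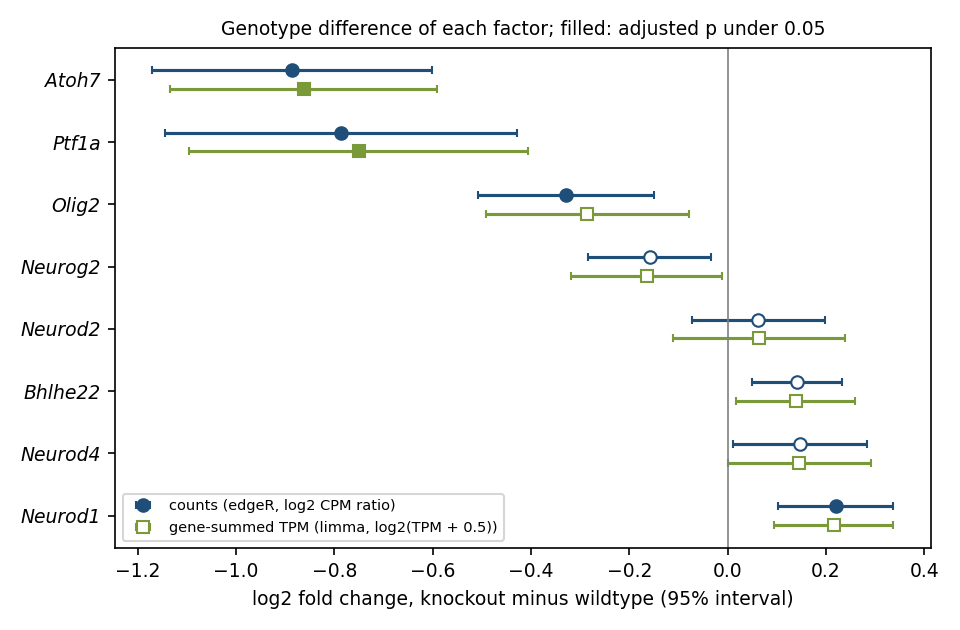
Log2 fold change of each factor (knockout minus wildtype) with its 95% interval, from counts (circles, edgeR) and from gene-summed TPM (squares, limma on log2(TPM + 0.5)); filled symbols passed an adjusted p of 0.05. The order of the 8 is the same in both tables, and the intervals of Atoh7 and Ptf1a reach no higher than −0.59 and −0.41.

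In the authors' deposited table, made with sleuth, Atoh7 was the single member with a q under 0.05, where 1.46% of its 17433 genes had one. Converted to log2 with knockout minus wildtype, the authors' deposited table gives −0.76 for Atoh7 (q = 0.0140), −0.69 for Ptf1a (q = 0.0570), −0.26 for Olig2 (q = 0.184) and 0.18 for Neurod1 (q = 0.243). Those 4 and the other members had the same sign there as in the counts. Called or not, the direction of each member was thus alike in all 3 tables, which come from the same libraries. In gene-summed TPM 2 of the 8 passed, both lower, where 1.54% of 15295 genes were called lower and 0.621% higher. Genotypes did not overlap there for Atoh7, Ptf1a and Olig2, all lower (3.97% of all genes), and for Neurod1, higher (3.92%).

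Whether members differed in their response was tested on the log2 ratio of 2 members within a pool, for all 28 pairs (exact two-sided permutation test, adjusted over the 28). In 20 pairs the ratio differed between genotypes (adjusted p 0.0247 or 0.0444), and in 18 of these the ratios did not overlap. Each of Atoh7, Ptf1a, Olig2 and Neurog2 differed in this way from each of Neurod1, Neurod2, Neurod4 and Bhlhe22. The 18 pairs without overlap were all at the smallest p that this permutation test can give, 0.0159 before adjustment. The 28 pairs share members, so they are not independent of one another. How often ratios of other genes differ between genotypes was not tested, so the count of 20 has no background to be set against. The ratio of Atoh7 to Neurod1 moved most, from −6.29 in wildtype to −7.41 in knockout, a difference of −1.11 (SE 0.17, adjusted p = 0.0247). Neurog2 set against Bhlhe22 gave the tightest difference, −0.30 (95% interval −0.39 to −0.21), although neither gene passed the test across all genes alone. Atoh7 also differed from Neurog2 (−0.74) and from Olig2 (−0.58), as Ptf1a did from both.

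Among the pairs with no call, Atoh7 and Ptf1a differed by −0.08, with a wide 95% interval of −0.67 to 0.52. Neurod4 and Bhlhe22 gave 0.01 (95% interval −0.15 to 0.17) and Neurog2 and Olig2 0.16 (−0.02 to 0.34). A missed threshold does not show that these members respond alike. Leaving out pools cannot make separate ranges overlap, so the 18 pairs without overlap had to stay so without knockout pools 1 and 2. The smallest p that 3 against 4 pools can give in the permutation test is 0.0571.

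**Figure D3:**
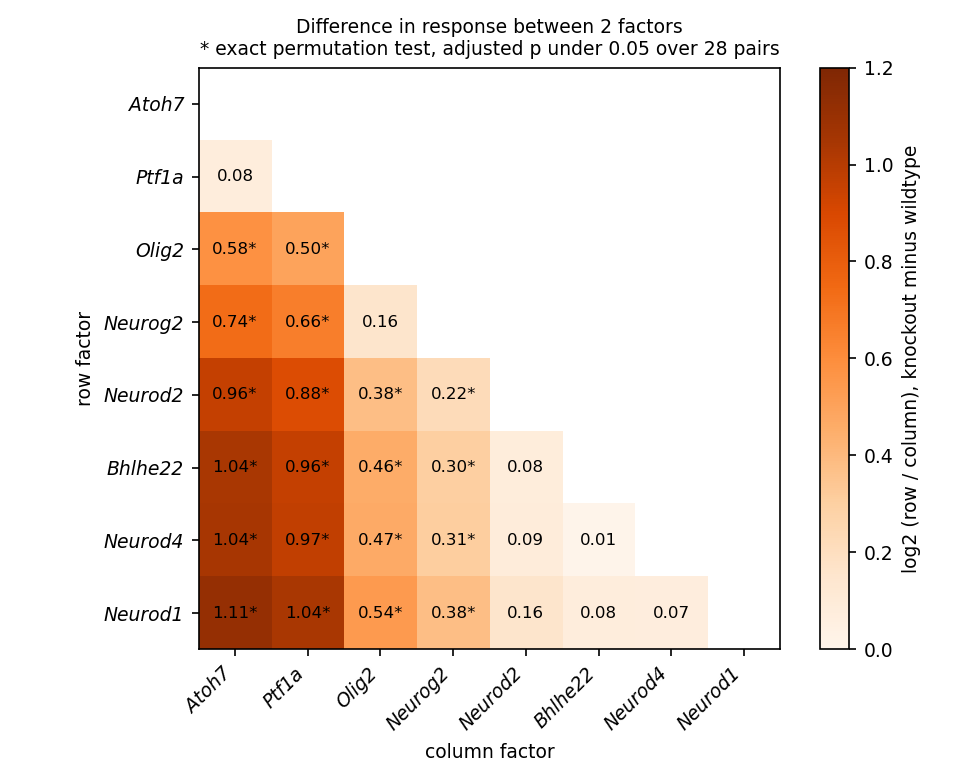
Difference in the genotype response of each pair of factors, as the log2 ratio of the row factor to the column factor, knockout minus wildtype; stars mark an adjusted p under 0.05 over the 28 pairs. The block of starred cells sets the 4 factors with negative fold changes against the 4 with positive ones, and the pairs within the lower right corner are unstarred.

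Per length, the members spanned a wide range of levels. Neurod1 averaged 479 ± 46 TPM over the 9 pools (SD) and Neurod4 293 ± 26 TPM, and together they made up 79.3 to 85.0% of the summed TPM of the 8. Neurog2 (58.7 ± 5.4 TPM) and Bhlhe22 (55.3 ± 4.0 TPM) overlapped, with Neurog2 above in 5 of 9 pools. Neurod2 followed at 21.2 ± 1.8 TPM, then Olig2 at 11.1 ± 1.7 TPM, Atoh7 at 7.79 ± 2.8 TPM and Ptf1a at 6.54 ± 2.1 TPM. The ranges of Olig2 and Atoh7 overlapped, as did those of Atoh7 and Ptf1a, although Olig2 was above Atoh7 in each of the 9 pools. The lowest Olig2 value (9.57 TPM) lay above the highest of Ptf1a (9.39 TPM). The 3 least abundant members were thus the 3 that were called lower. The Neurod1 and Neurod4 share was 79.3 to 82.0% in wildtype and 82.3 to 85.0% in knockout.

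**Figure D4:**
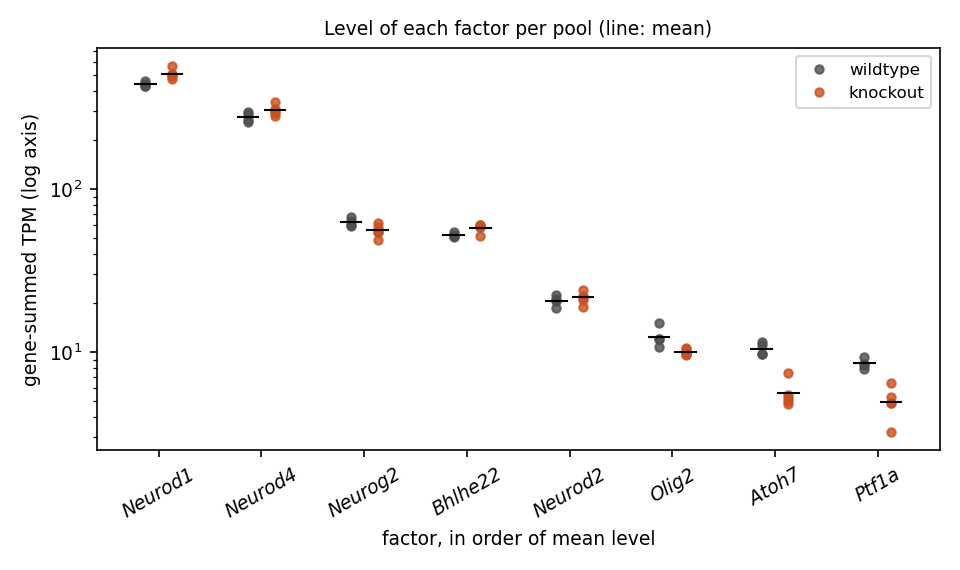
Gene-summed TPM of each factor per pool on a log axis, in order of mean level over the 9 pools, with a line at each group's mean. Neurod1 and Neurod4 stand far above the rest, and the genotypes do not overlap in Neurod1, where knockout is higher, and in Olig2, Atoh7 and Ptf1a, where it is lower.

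Among 16 other neural bHLH genes listed here, 12 could be tested, and Bhlhe23 alone was called, higher in knockout. Bhlhe23, a bipolar cell factor related to Bhlhe22, was at 1.45 ± 0.82 CPM in knockout (SD, n = 5) and 0.170 ± 0.088 CPM in wildtype (SD, n = 4; edgeR adjusted p = 0.00251). Neurod6, an amacrine factor related to Neurod2, measured 0.32 (adjusted p = 0.411). Atoh1 was at 0 in each pool, and Neurog3, Olig3 and Ferd3l did not pass the filter, the highest reaching 0.103 CPM.

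Of the 3 E proteins with which the members pair, Tcf3 was lower, by a small step from 123 ± 1.3 to 108 ± 5.2 CPM (SD, n = 4 and 5; log2 fold change −0.18; edgeR adjusted p = 0.0316; call lost in 7 of 9 fits without 1 pool). Tcf4 measured 0.13 (adjusted p = 0.114) and Tcf12 0.01 (adjusted p = 0.934). Among the 11 Hes, Hey, Id and related factors that oppose proneural genes, 1 was lower and none higher, and 9 of the 11 had negative values, with a median of −0.14. None of the 11 was called when knockout pools 1 and 2 were left out, where the median was −0.05, and in TPM none was called by limma, with a median of −0.07. Id1, which binds E proteins, fell by 0.31 (edgeR adjusted p = 0.0177; call lost without wildtype pool 1 or 3, and without knockout pools 1 and 2, at 0.0952), while Hes1 measured −0.31 (adjusted p = 0.183) and Hes5 −0.28 (adjusted p = 0.0715).

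Of 22 Notch pathway genes 1 was lower, Dll1, the ligand that proneural factors induce (log2 fold change −0.23; edgeR adjusted p = 0.0227). It lost its call without knockout pool 1 or 2 and without wildtype pool 2 or 4. Of 18 genes that neurogenic progenitors and newborn neurons switch on, 3 were lower and 1 higher, with a median of −0.04. Hes6, which counters Hes1, fell by 0.31 and Sox11, a factor of young neurons, fell by 0.29 (edgeR adjusted p = 0.00512 and 0.00514). Insm1, a zinc finger factor of late progenitors and young photoreceptors, rose by 0.28 (edgeR adjusted p = 0.0143). Its call was lost without wildtype pool 1 or 4, and without knockout pools 1 and 2 together (0.23, edgeR adjusted p = 0.0952).

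Genes of the lineages that the members serve moved unevenly. Of 15 ganglion cell genes, the lineage of Atoh7, 3 were higher and none lower, with a median of −0.09. Of 18 amacrine and horizontal cell genes, the lineages of Ptf1a, 2 were higher and 2 lower, with a median of 0.05. Foxn4, which acts upstream of Ptf1a in progenitors, was at 23.4, 22.5, 26.7 and 23.0 CPM in wildtype pools and 11.5, 11.01, 13.4, 12.7 and 16.0 CPM in knockout pools. It fell by 0.88 (SE 0.10; edgeR adjusted p = 0.000325), with no overlap between genotypes, and by 0.77 without knockout pools 1 and 2 (adjusted p = 0.00171). Prdm13, a target of Ptf1a in the amacrine lineage, measured 0.24 (adjusted p = 0.0783), and Prdm8, the partner of Bhlhe22, −0.01 (adjusted p = 0.935). Photoreceptor genes, the lineage of Neurod1, were higher in 11 of 22 and lower in none (median 0.33), and bipolar cell genes in 5 of 17 (median 0.09). Without knockout pools 1 and 2 these counts were 7 and 1, and the medians 0.16 and 0.05. The 2 higher amacrine and horizontal cell calls were then lost as well.

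Genes of dividing cells were lower in knockout, as Atoh7, Ptf1a and Olig2 were. All 20 on the list were lower, with a median log2 fold change of −0.62, and their summed level was 1890 to 2074 CPM in wildtype and 1181 to 1396 CPM in knockout. That list was drawn up with earlier results of these data known, so its direction is no independent evidence. Knockout pools 1 and 2 were lowest, at 1183 and 1181 CPM, and pool 5 was highest, at 1396 CPM. Ptf1a was also lowest in knockout pools 1 and 2, but it was highest in knockout pool 3 (5.17 CPM). Atoh7 was highest in knockout pool 5, with pools 1 to 4 about level. Olig2 was about level in all 5. Among the wildtype pools the sum of the list was lowest in pool 3, at 1890 CPM. Its mean log2 level, relative to all pools, was instead lowest in pool 4 (0.310), with pool 3 at 0.323. In wildtype pool 3 Ptf1a (7.27 CPM) and Olig2 (20.2 CPM) were at their highest and Atoh7 (7.73 CPM) at its lowest wildtype value. Without knockout pools 1 and 2, 19 of the 20 were lower, with a median of −0.52. The part of these genes in the results of Atoh7, Ptf1a and Olig2 was not tested.

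**Figure D5:**
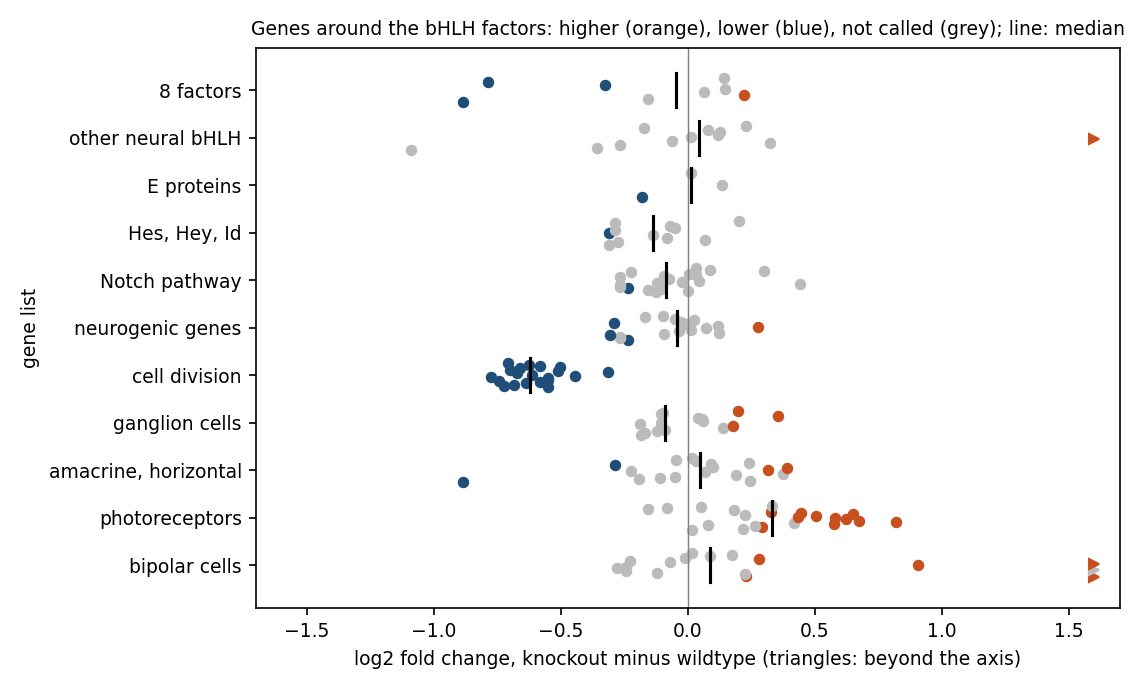
Log2 fold change (counts, knockout minus wildtype) of each tested gene in the lists around the 8 factors; orange is called higher, blue called lower, grey not called, the line is the list's median, and triangles mark genes beyond the axis. The cell division list lies wholly on the negative side (median −0.62) and the photoreceptor list mostly on the positive side (median 0.33). The Notch pathway list straddles 0, and the list of Hes, Hey and Id genes lies mostly below 0 (median −0.14).

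The genes most like each member over the 9 pools, by Pearson correlation of log2 CPM among 15745 genes with a mean of at least 1 CPM, are given as a description. Both genes of a pair come from the same libraries and share their depth and the genotype split. For Atoh7 they were E2f8 and the replication gene Mcm4 (both r = 0.982) and the DNA repair gene Bard1 (0.981). For Ptf1a they were Tubb6 (0.974), the mitotic ubiquitin enzyme Ube2c (0.970) and Pdcd6 (0.968), and for Olig2 the linker histone H1fx (0.979), Mapk11 (0.978) and Lsm3 (0.973). Of these, E2f8 fell by 0.94, from 25.2 to 13.1 CPM (edgeR adjusted p = 0.000217), about as much as Atoh7. Neurod1 was most like Rybp (0.979), Serinc3 (0.975) and Acsl1 (0.961), Neurog2 like Rpl3-ps1 (0.971), Gas1 (0.963) and Magohb (0.961), and Neurod4 like Nek7 (0.972), Zfp354c (0.959) and Aasdhppt (0.959). Neurod2 was most like Oxa1l (0.984), Atcay (0.968) and Rab29 (0.955), and Bhlhe22 like Gm28439 (0.962), Creb3l2 (0.960) and Jun (0.947).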

How the data were processed

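The authors deposited whole-number counts per gene symbol, unnormalised per the file headers and values (counting program: not given in the sources used here). The authors also deposited kallisto 0.46.1 TPM per transcript on GRCm38 after Trimmomatic 0.39, per the submitters' processing notes. The authors rescaled this deposited signal between pools by an undescribed step, since its columns sum to 953963 to 1083977. Of 118489 rows, 1673 without a symbol (0.612 to 0.833% of TPM) and 188 with digits alone were left out, and the rest summed per symbol. The deposited sleuth 0.30.8 table gives p-values and q-values, and an effect on the natural log scale (higher in wildtype when positive, read from Opn4), per the file headers.

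Counts were tested with edgeR 4.0.16 in R 4.3.3 (filterByExpr, TMM, quasi-likelihood F test). SE is the fold change divided by the square root of F. TPM were tested with limma 3.58.1 (trend) on log2(TPM + 0.5), which understates changes of low genes, for genes with at least 1 TPM in at least 4 pools. Alternatives included DESeq2 1.42.0. Permutation tests used scipy 1.17.1 on log2 CPM (prior count 2). The edgeR and limma tests were first tested on simulated data. Positions are from GENCODE M21. Named genes are the members, up to 4 called genes per list with the smallest adjusted p, direct partners of members, and the 3 genes most like each member; not all are described, 1 gene of the other bHLH list is not reported here, and E2f8 was given values after these were seen. Members and lists were chosen with earlier results of these data known. Pools of a genotype came from separate animals and differed by more than sampling noise. Same-numbered pools of both genotypes did not deviate together (r −0.0307 to 0.00614), so the numbers were not used as pairs.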

Additional observations from a re-analysis of the deposited data

Results flagged for a closer look

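In 2 of the 8 factors, 1 knockout pool stood apart from the other 4 by the gap to its nearest neighbour, in both tables. Atoh7 was highest in knockout pool 5, at 6.16 CPM and 7.46 TPM, where the gap was 0.772 and 0.754 of the range of the knockout pools. Bhlhe22 was lowest in knockout pool 1, at 100.6 CPM and 51.5 TPM, with gaps of 0.793 and 0.735 of the range. Chance gives such a gap in about 1 of 20 groups, and 32 groups were checked (8 factors, 2 genotypes, 2 tables).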

How the results depend on the processing

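Each of the 8 members kept its direction under all 17 alternatives of the count test and all 15 of the TPM test, and the call of Atoh7 held in all of them. The median of all genes moved by less than 0.1 (log2) under each scaling. From counts, 760 genes (284 higher, 476 lower) and 4 members were called; DESeq2 called 1502 genes and 5 members (Bhlhe22 added), edgeR without a filter on low counts 549 genes and 2 members, and edgeR without knockout pools 1 and 2 486 genes and 2 members, in both fits Atoh7 and Ptf1a. Leaving out 1 pool at a time gave 524 to 859 genes and 1 to 3 members, the 1 being Atoh7 without wildtype pool 3. From TPM, 330 genes and 2 members were called; without a filter these were 194 and 1, without knockout pools 1 and 2 (added after seeing the data) 154 and 1, and with 1 pool left out 160 to 364 and 1 to 2. No pair of members can pass without knockout pools 1 and 2, hence 0 of 28 against 20, by construction. The labels' numbers do not pair the pools (knockout pool 1 deviated most with wildtype pool 4, r 0.0767); with the replicate block, counts gave 888 genes and 4 members, Neurog2 in (−0.19, adjusted p = 0.0474) and Olig2 out (adjusted p = 0.0653), and TPM 215 genes and 1 member. The cause of these shifts was not tested. Depth was lowest for Ptf1a (189 to 603 raw counts per pool) and Atoh7 (266 to 745).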
